A study of Mus musculus with 4 samples.

Results

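The vasomotor genes examined here were 6 of the 55487 genes counted in mouse brain single cells: Nos3, Edn1, Ece1, Ednra, Ednrb and Ace, taken by their symbols, with earlier results of these data known. They were followed across 4 droplet libraries of dissociated brain enriched for endothelial cells (ECs), with 1 library for each of 4 groups: WT Cre and EC-K4KO mice, each at a young and an old age. EC-K4KO mice carried floxed Klf4 alleles and the inducible CDH5-CreERT2 transgene, whose Cdh5 (VE-cadherin) promoter limits recombination to cells that use it. WT Cre littermates carried the Cdh5-driven Cre without deletion of Klf4. Deletion was induced with tamoxifen, which by the paper's account control mice received too, although the labels state that no pharmacological treatment was used. Mice of both sexes were used, the labels give age only as young or old, and how many animals entered a library is not stated in the sources used here. The study asked how loss of endothelial KLF4, a transcription factor of the vessel lining, relates to brain ageing.

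The libraries held 5324, 8358, 7298 and 5442 barcodes for WT Cre then EC-K4KO in young, followed by WT Cre then EC-K4KO in old, which is the order of every list of 4 values that follows. After filtering, 20737 cells remained, and pairs of libraries shared 7 to 42 barcodes. Cells were grouped by clusters and named from marker genes as "like" a class, and 10150 were endothelial-like. Levels are unique molecular identifiers (UMIs) of a gene scaled to counts per 1000000 UMIs of the class in that library (CPM). With 1 library a group there is no replicate check and no test of a condition was made, so intervals are exact 95% intervals that cover counting error only. Klf4 itself stood at 1686, 3265, 2092 and 3293 CPM in endothelial-like cells, so it was higher in the library labelled EC-K4KO at both ages (log2 ratio 0.95, 0.94 to 0.97, in young and 0.65, 0.63 to 0.68, in old). Gene-level counts cannot tell whether reads fell in the deleted part, so they may check nothing, and genotype directions are given only as "the library labelled EC-K4KO" against WT Cre.

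Nitric oxide made in endothelium by endothelial nitric oxide synthase, the product of Nos3, diffuses to smooth muscle, where it raises cyclic GMP and relaxes the vessel. Edn1 encodes the precursor of endothelin-1, a potent constrictor peptide that endothelin-converting enzyme, the product of Ece1, cuts to its active form. Endothelins act on the receptor encoded by Ednra, which constricts mural cells, and on that encoded by Ednrb, which in endothelium couples to nitric oxide release and is also abundant in glia. Ace encodes angiotensin-converting enzyme, which makes angiotensin II and breaks down bradykinin. Ligand-side genes are textbook genes of endothelium, and receptor genes of the cells around it.

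In the mouse assembly GRCm38, Nos3 lies at chr5:24364810-24384474 on the plus strand, Edn1 at chr13:42301476-42307990 (plus), Ece1 at chr4:137862237-137965229 (plus), Ednra at chr8:77663031-77724464 (minus), Ednrb at chr14:103814625-103844402 (minus) and Ace at chr11:105967945-105989964 (plus). KLF proteins are known for binding CACCC boxes, so the 250 bases before a start site are shown for a ligand gene, a receptor gene of glia and, of the members, the gene with the largest ratio by label in capillary-like cells. They were taken from RefSeq on GRCm38.p6, whereas the gene spans above are from GENCODE M21. The start of Edn1 is the same in both, while the stretch of Ednrb lies wholly inside its span and that of Ace overlaps the span's first bases. RefSeq lists 2 starts for Ace and 4 for Ece1, of which the most upstream was used. The stretches are printed 5′ to 3′ on the gene's strand, with CACCC or its reverse GGGTG in capitals.
Edn1, chr13:42301226-42301475, plus strand: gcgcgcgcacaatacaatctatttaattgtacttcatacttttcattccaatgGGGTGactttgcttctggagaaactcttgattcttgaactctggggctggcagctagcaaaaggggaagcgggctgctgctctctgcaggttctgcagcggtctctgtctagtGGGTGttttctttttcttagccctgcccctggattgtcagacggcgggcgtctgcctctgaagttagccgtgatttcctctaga
Ednrb, chr14:103843702-103843951, minus strand: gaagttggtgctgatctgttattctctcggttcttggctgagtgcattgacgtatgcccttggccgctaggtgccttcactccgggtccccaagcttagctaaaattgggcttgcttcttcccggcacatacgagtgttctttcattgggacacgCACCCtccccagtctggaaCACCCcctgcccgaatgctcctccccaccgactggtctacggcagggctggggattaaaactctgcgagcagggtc
Ace, chr11:105967698-105967947, plus strand: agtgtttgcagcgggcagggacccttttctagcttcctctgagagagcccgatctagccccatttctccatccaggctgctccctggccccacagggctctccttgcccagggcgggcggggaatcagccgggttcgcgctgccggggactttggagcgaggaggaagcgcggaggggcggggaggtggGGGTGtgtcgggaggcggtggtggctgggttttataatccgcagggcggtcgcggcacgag
Edn1 held 2 matches, the nearer ending 80 bases before the start, Ednrb held 2 (nearest 72 bases) and Ace 1 (57 bases). Ece1 held 1 match at 169 bases, Ednra held 0, and Nos3 was not among the promoters listed. Of 27025 promoters, the first listed for each gene symbol, 13864 (51.3%) held at least 1 match on either strand, so a match is common and is only a description. The members' stretches were instead taken at the most upstream listed start.

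Because Edn1 was read beside its paralogs, the bases that code for the mature peptides show how the transcripts differ. Each run has 21 codons, read from GENCODE M21 transcripts on GRCm38 on the plus strand, with the 4 cysteine codons in capitals.
Edn1, chr13:42303649-42303711: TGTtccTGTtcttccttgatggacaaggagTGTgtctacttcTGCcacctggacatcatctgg
Edn2, chr4:120161951-120162013: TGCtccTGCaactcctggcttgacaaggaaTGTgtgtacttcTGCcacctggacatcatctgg
Edn3, chr2:174761749-174761811: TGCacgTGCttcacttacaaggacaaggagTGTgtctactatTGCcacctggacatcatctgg
Edn2 shared 53 of 63 bases and 18 of 21 residues with Edn1, and Edn3 shared 50 of 63 bases and 15 of 21 residues. In these libraries Edn1 and Edn3 gave UMIs in endothelial-like cells, whereas Edn2 had 0 UMIs there in each of the 4 libraries, a count that allows up to 3 UMIs a library.

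The 6 genes separated by class. Nos3 and Edn1 were highest in endothelial-like cells, Ece1 in pericyte-like cells with endothelial-like cells next, Ednra in pericyte-like and nearby mural groups, Ednrb in glial groups, and Ace in choroid plexus epithelial-like cells. Nos3 stood at 211.1, 183.1, 192.0 and 156.6 CPM in endothelial-like cells, from 5389, 7831, 2884 and 1689 UMIs. The next class, fibroblast-like cells, averaged 29.3 CPM and lay below endothelial-like cells in 4 of 4 libraries with intervals apart in each.

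Edn1 stood at 397.9, 439.9, 340.0 and 391.8 CPM in endothelial-like cells. Microglia-like cells gave 19.3, 19.6, 42.0 and 52.7 CPM of Edn1, with both old libraries above both young ones. That class joined a cluster led by Tnf, Ccl3 and Ccl4 with one led by P2ry12, and the former held 150 of 326, 197 of 573, 965 of 1194 and 463 of 586 cells, so most cells of the young and the old class sat in different clusters. The 8 endothelial markers summed to 380.5, 296.7, 119.8 and 200.7 CPM in those microglia-like cells. They were lower in the old libraries, where Edn1 was higher, and their part in the Edn1 level was not tested.

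Ece1 was higher in pericyte-like than in endothelial-like cells in 4 of 4 libraries, at 633.0, 589.2, 328.6 and 399.1 CPM against 270.3, 313.8, 238.4 and 280.1 CPM. The fold between them was 2.34, 1.88, 1.38 and 1.43, larger in both young libraries than in both old ones. Smooth muscle-like cells held far less Ece1, at 26.4 to 41.1 CPM, which put pericyte-like cells 12.4- to 19.4-fold above them.

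**Figure D1:**
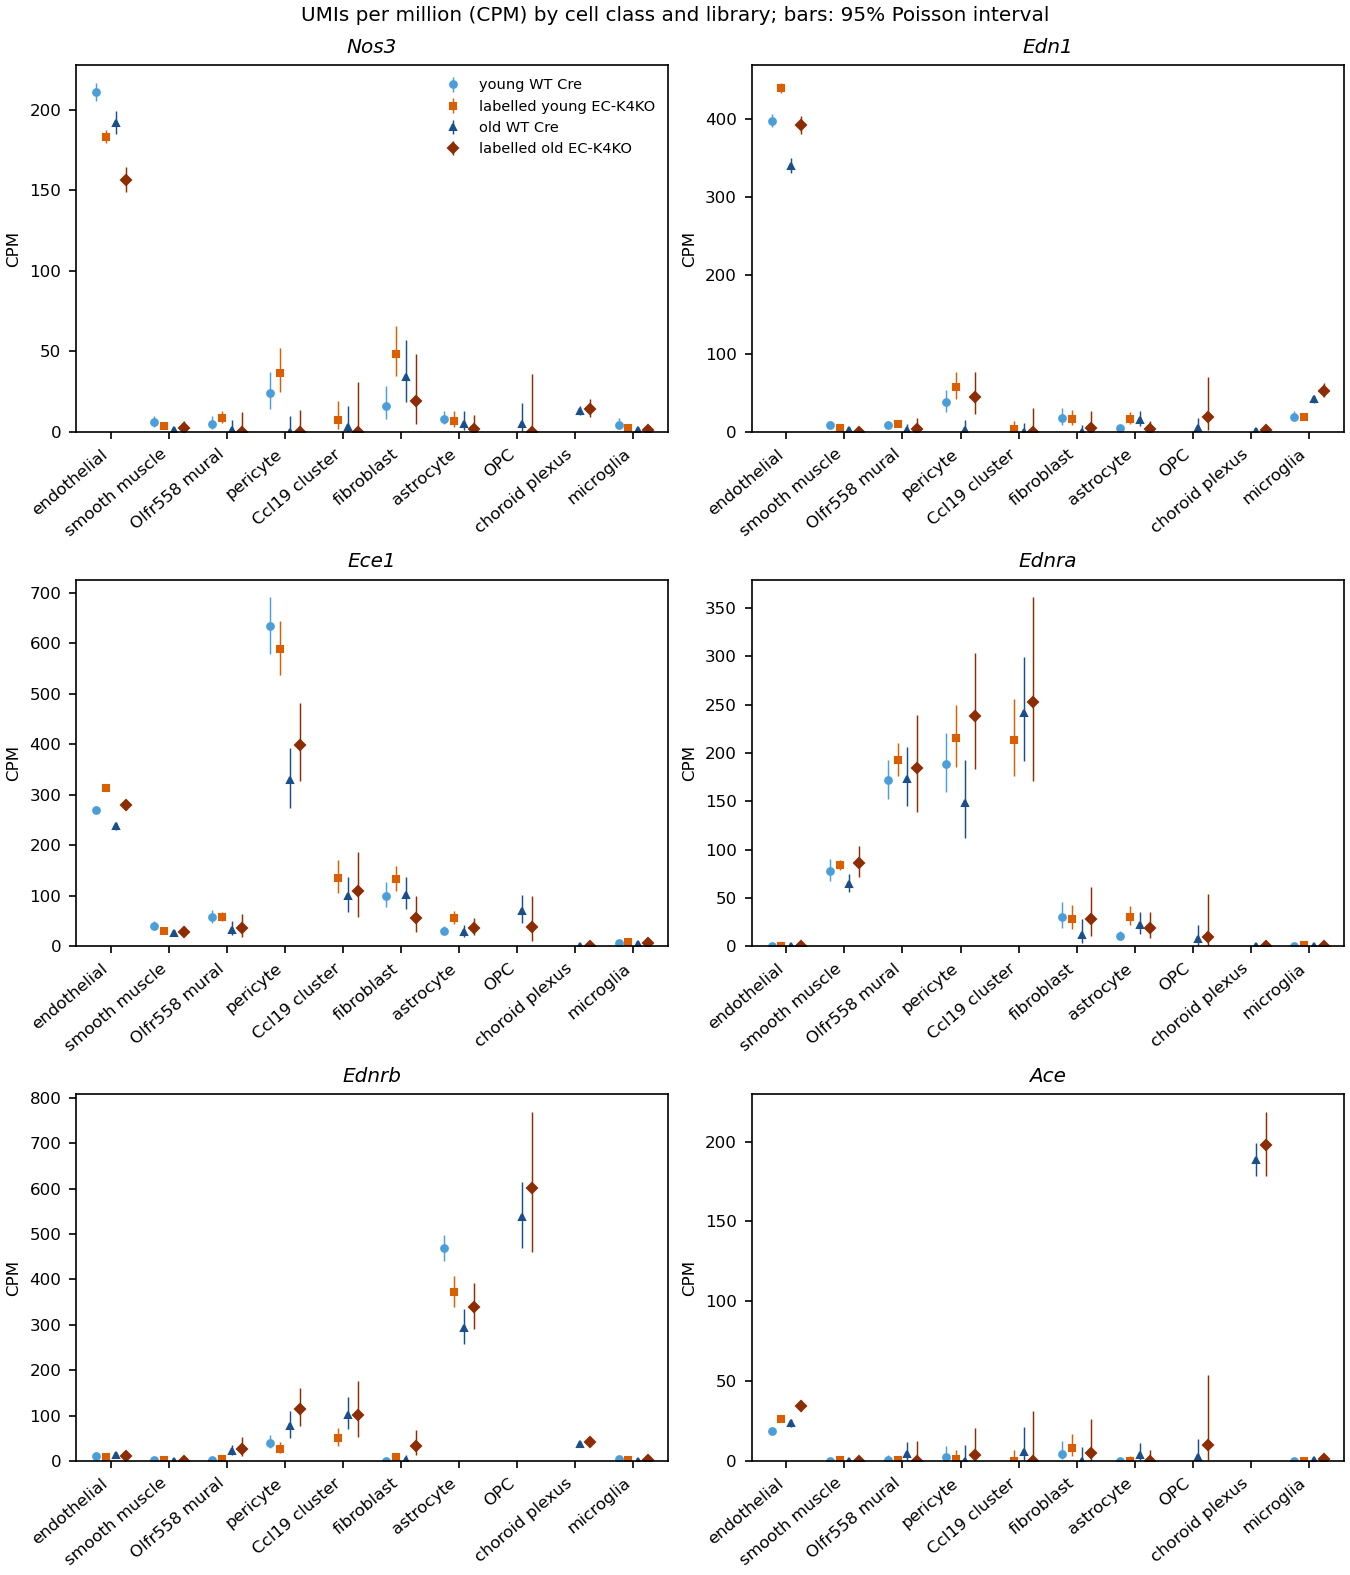
Level of each of the 6 genes (CPM, linear axis) in each class, a point for each library with its 95% Poisson interval; the class names stand for cells like that class, and missing points are classes with fewer than 20 cells in a library. Nos3 and Edn1 peak in the endothelial class, Ece1 in pericytes, Ednra in pericytes and the Olfr558 and Ccl19 clusters, Ednrb in oligodendrocyte precursors and astrocytes, and Ace in choroid plexus epithelium at 188.7 and 197.7 CPM.

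Ednra, the constricting receptor, marked the mural groups. It stood at 188.4, 215.9, 148.4 and 238.0 CPM in pericyte-like cells and at 171.8, 193.2, 173.5 and 184.7 CPM in an unnamed mural cluster led by Olfr558 and Rgs5, which carried markers of both smooth muscle and pericytes. Smooth muscle-like cells were lower in 4 of 4 libraries, at 78.3, 83.9, 64.9 and 86.8 CPM. Pericyte-like cells and the Olfr558 cluster had overlapping intervals in 4 of 4 libraries.

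The pericyte-like level of Ednra was 2.30- to 2.75-fold that of smooth muscle-like cells. A further unnamed cluster led by Ccl19, Il6 and Ccl11 met 5 of 7 pericyte markers but also had the fibroblast gene Col3a1 among its leading genes, and by their own marker UMIs 36 of its 221 cells were assigned to fibroblasts and 29 to pericytes. Its Ednra level was 213.2, 241.4 and 253.1 CPM in the 3 libraries with enough cells. Within smooth muscle-like cells, the cluster led by Rasl11a held 87.7, 102.3, 78.2 and 103.0 CPM of Ednra, above the cluster led by Actg2 at 58.5, 53.2, 43.6 and 55.4 CPM in 4 of 4 libraries. Endothelial-like cells held 50 Ednra UMIs in all, 0.278 to 0.608 CPM by library.

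Ednrb had a different map. Oligodendrocyte precursor-like cells, counted only in the old libraries, stood at 538.3 CPM (old WT Cre) and 600.3 CPM (old EC-K4KO). Astrocyte-like cells stood at 468.7, 372.9, 293.6 and 339.3 CPM. Smooth muscle-like cells held at most 1.57 CPM, so the receptors did not share their highest class.

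Within endothelial-like cells, Ednrb came from few cells. A cluster of 85 of 10150 cells led by Plvap, Gpihbp1 and Esm1 gave 590 of 983 endothelial Ednrb UMIs (60.0%). The cluster stood at 542.7, 446.4 and 576.8 CPM in the 3 libraries with enough cells, 87.8-, 128.3- and 197.0-fold above capillary-like cells. Plvap is known as a gene of fenestrated endothelium, and this cluster met no segment name.

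Ace was low in endothelium and unevenly spread. Endothelial-like cells stood at 18.9, 26.3, 23.6 and 34.7 CPM, and choroid plexus epithelial-like cells, counted in the old libraries, at 188.7 and 197.7 CPM. The mural groups, with the Ccl19 cluster, held at most 5.82 CPM of Ace. Of the endothelial Ace UMIs, 49.2% came from arterial-like cells, which were 1166 of 10150 endothelial-like cells.

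The vessel segments were named from markers other than the 6 genes: arterial-like, capillary-like and venous-like, with 1 cluster led by Sema3g that carried arterial and capillary markers and kept its gene's name. Edn1 stepped down from artery to vein. Arterial-like cells stood at 715.5, 1017, 595.9 and 700.4 CPM, the Sema3g cluster at 567.2, 697.4, 504.0 and 708.7 CPM, and capillary-like cells at 330.4, 339.1, 278.7 and 329.0 CPM. Arterial-like cells were above the Sema3g cluster in 3 of 4 libraries, and the Sema3g cluster was above capillary-like cells in 4 of 4 with intervals apart.

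Venous-like cells were below capillary-like cells for Edn1 in 4 of 4 libraries, at 230.8, 236.0, 175.0 and 166.4 CPM. The arterial level was 2.17-, 3.0-, 2.14- and 2.13-fold the capillary level. Against venous-like cells it was 3.10-, 4.31-, 3.40- and 4.21-fold.

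Nos3 was much flatter along the vessel. Arterial-like cells averaged 205.4 CPM over the 4 libraries, capillary-like cells 185.6, venous-like cells 176.7 and the Sema3g cluster 169.5. Arterial-like was above capillary-like in 4 of 4 libraries, but the intervals were apart in only 2, and capillary-like was above venous-like in 4 of 4 with intervals apart in 1. The Plvap cluster was lowest at 102.6 CPM. With per-cell marker UMIs the order of the named segments became capillary-like, venous-like, arterial-like.

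Ece1 varied little, with means of 308.7 CPM in arterial-like, 293.4 in the Sema3g cluster, 268.0 in capillary-like and 237.6 in venous-like cells. Neighbours in that order were above each other in 3 of 4 libraries, and arterial-like cells and the Sema3g cluster had intervals apart in 0. The Plvap cluster was highest for Ece1 at 469.2, 468.9 and 362.1 CPM.

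Ace, in contrast, stood out in arterial-like cells at 76.8, 80.9, 61.0 and 95.7 CPM. Capillary-like cells held 7.0, 15.9, 7.03 and 14.2 CPM, so the arterial level was 10.9-, 5.09-, 8.61- and 6.72-fold higher. Venous-like cells lay between them at 20.4 to 25.5 CPM.

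**Figure D2:**
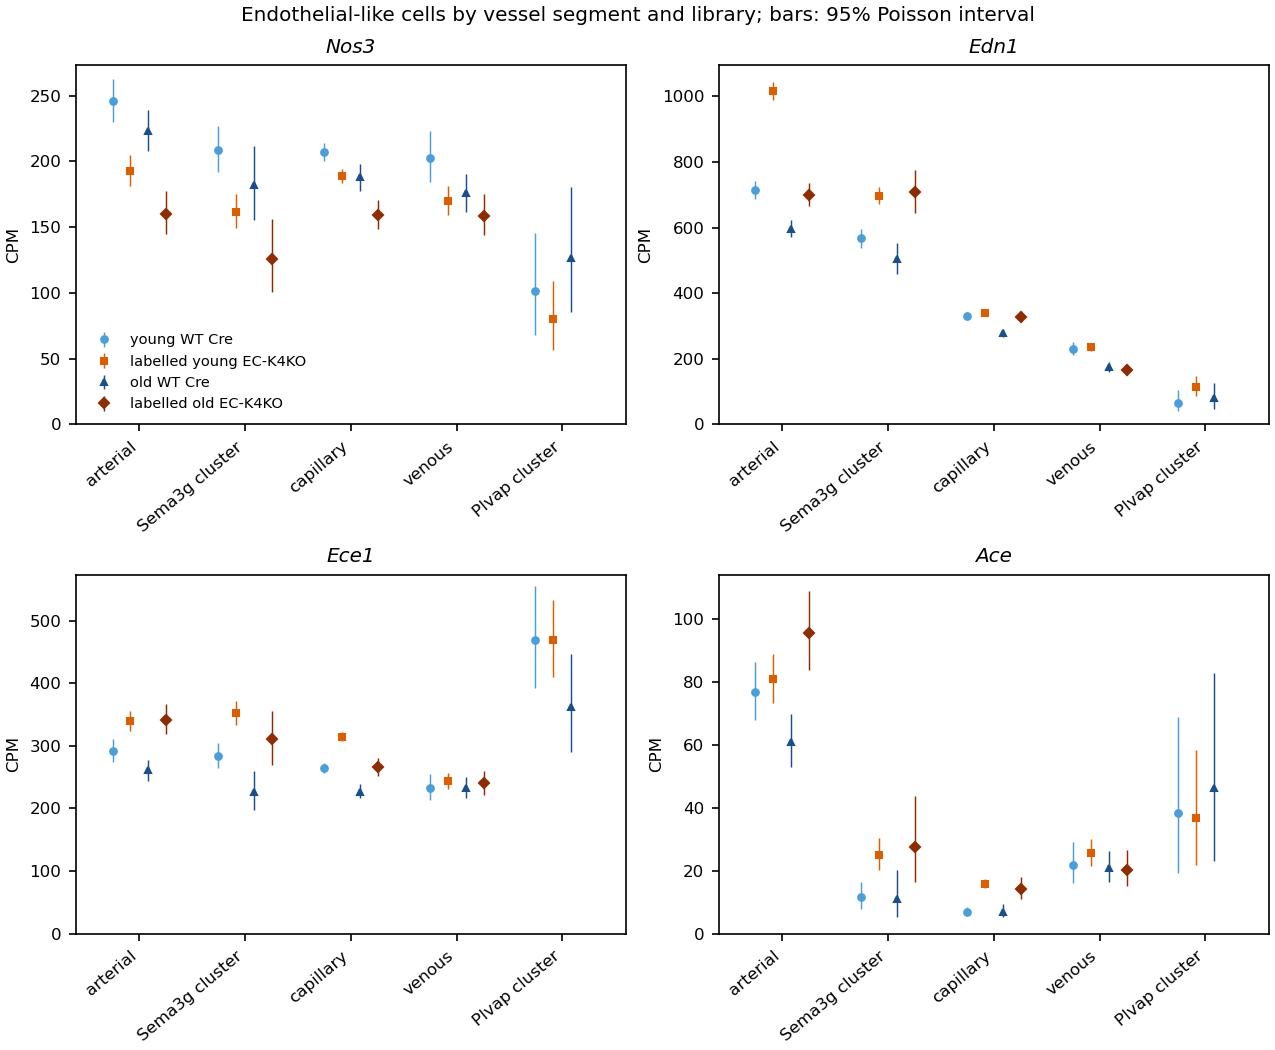
Level (CPM) of Nos3, Edn1, Ece1 and Ace along the endothelial segments, a point for each library with its 95% Poisson interval; segment names stand for cells like that segment, the Sema3g and Plvap clusters are named by a leading gene, and the Plvap cluster has 3 libraries. Ace is highest in arterial cells in each of the 4 libraries, Edn1 is higher in arterial and Sema3g cluster cells than in capillary, venous or Plvap cluster cells, and Ece1 is highest in the Plvap cluster.

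Counted as a share of cells after thinning each cell to 1000 UMIs, the same steps were seen for Edn1. In arterial-like cells 32.7%, 53.3%, 33.3% and 38.6% held an Edn1 UMI, against 17.8% to 21.7% of capillary-like cells. Microglia-like cells, which gave 0.920%, 1.22%, 3.6% and 3.58%, show the share in cells of another lineage, where medians were 4604 to 5607 UMIs. Without thinning, the Nos3 share in endothelial-like cells was 70.0%, 72.3%, 56.8% and 47.7%, and with thinning it was 18.7%, 17.0%, 18.1% and 13.7%, since depth differed between libraries.

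The comparison of labels asked which vasomotor genes differed between EC-K4KO and WT Cre libraries of the same age. In whole endothelial-like cells, Nos3 was lower and Edn1, Ece1 and Ace were higher in the library labelled EC-K4KO at both ages. For Nos3 the log2 ratio was −0.21 (−0.26 to −0.16) in young and −0.29 (−0.38 to −0.21) in old. For Edn1 it was 0.14 (0.11 to 0.18) and 0.20 (0.15 to 0.26), and for Ece1 0.22 (0.17 to 0.26) and 0.23 (0.16 to 0.30). The young and old pairs share no library.

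These ratios were below the 1.5-fold line used to count a gene as different. In whole endothelial-like cells 0 of 5 members with at least 10 CPM passed it in young, where 2.48% of all genes tested did, and 0 of 5 in old, where 2.57% did. The median gene differed by −0.04 in young and −0.02 in old, and Nos3 and Edn1 lay on opposite sides of it. Ace came closest to the line, at 0.48 (0.32 to 0.64) in young and 0.55 (0.34 to 0.77) in old, at percentiles 98.0 and 98.4, and it passed at both ages when cells were weighted equally (0.78 and 0.63). Ednrb was lower in the library labelled EC-K4KO, at −0.39 (−0.61 to −0.16) and −0.40 (−0.75 to −0.07). With cells assigned by their own marker UMIs its ratio passed the line at both ages (−0.77 and −0.87). The Plvap cluster made up 0.763%, 0.903%, 1.02% and 0.629% of endothelial-like cells. By segment Ednrb was higher in the library labelled EC-K4KO in 3 of 8 pairs of segment and age and lower in 5. Capillary-like cells held 6.17, 3.47, 2.87 and 2.36 CPM of Ednrb, from 104, 96, 20 and 12 UMIs, below the minimum of 10 CPM for the genes counted.

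Nos3 was lower in the library labelled EC-K4KO in 8 of 8 pairs of segment and age. Segments or clusters of one age come from the same pair of libraries, so they are not replicates, for this and the other members. Arterial-like cells stood at 245.9 against 192.5 CPM in young and at 223.1 against 160.2 CPM in old, which gave log2 ratios of −0.35 (−0.48 to −0.22) and −0.48 (−0.66 to −0.30). Capillary-like cells gave −0.13 (−0.20 to −0.07) and −0.24 (−0.37 to −0.11), and venous-like cells −0.26 (−0.42 to −0.09) and −0.14 (−0.33 to 0.04). The 4 capillary-like clusters each showed the lower value at both ages. The young values were close in the clusters led by Ndnf (222.7 in WT Cre and 219.6 CPM in EC-K4KO) and Gm26802 (158.3 and 152 CPM). When each cell was assigned by its own marker UMIs in place of its cluster, the old arterial-like ratio was 0.11, so that direction depends on how arterial-like cells are chosen.

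For Edn1 the young arterial-like ratio was 0.51 (0.44 to 0.58) and the old one 0.23 (0.14 to 0.33), while the Sema3g cluster gave 0.30 (0.21 to 0.39) and 0.49 (0.30 to 0.68). Capillary-like cells gave 0.04 (−0.01 to 0.09) and 0.24 (0.14 to 0.33), with 2 of 4 clusters higher and 2 lower in young and 3 higher and 1 lower in old. Arterial markers, summed further on, were higher by label in capillary-like cells at both ages. In the Sema3g cluster they were higher in old and lower in young, and their part in the Edn1 ratios was not tested. Venous-like cells gave 0.03 (−0.12 to 0.18) and −0.07 (−0.25 to 0.11). With each cell assigned by its own marker UMIs the young arterial-like ratio was 0.06 and the old one 0.54. Ece1 was higher in the library labelled EC-K4KO in 8 of 8 pairs of segment and age, and in 4 of 4 capillary-like clusters at each age. Its young arterial-like ratio, 0.22, was −0.13 with per-cell marker UMIs, and its young venous-like ratio, 0.06, was −0.04 with cells weighted equally.

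Of the 4 members tested by segment, Ace alone had a ratio past the fold by label, and it did so in capillary-like cells at both ages. Those cells held 118 UMIs in young WT Cre against 440 in young EC-K4KO, and 49 in old WT Cre against 72 in old EC-K4KO. The log2 ratio was 1.18 (0.89 to 1.49) in young and 1.01 (0.47 to 1.57) in old. Ace reached the mean of 10 CPM in capillary-like cells only through the libraries labelled EC-K4KO, so its place among the genes tested is a description. The 4 capillary-like clusters were each higher for Ace in CPM in the library labelled EC-K4KO at both ages. The old counts were low, given here for WT Cre then EC-K4KO. They were 14 and 30 UMIs in the cluster led by Gm26802, 13 and 11 (Hmcn1), 6 and 12 (Cxcl12) and 16 and 19 (Ndnf). In the Sema3g cluster Ace gave 1.09 (0.51 to 1.74) and 1.31 (0.14 to 2.62), the latter from 10 and 18 UMIs.

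The count of members past the fold was 1 of 4 in capillary-like cells at each age, where 2.83% (young) and 3.54% (old) of genes tested passed. In the Sema3g cluster it was 1 in each pair, against 5.84% and 18.9%. In arterial-like cells it was 0 of 4 in young (5.31% of genes) and 1 of 4 in old (7.13%), where Ace was at 61.0 and 95.7 CPM (0.65, 0.38 to 0.93). That old arterial-like value was under the fold with cells weighted equally (0.51) and with per-cell marker UMIs (0.35). In venous-like cells the count was 0 of 4 in both (6.37% and 6.79%). The capillary-like count favours Ace, since the filter admitted it through the libraries where it was high, and nothing is read from it. Arterial markers summed to 172.9, 259.0, 229.4 and 345.2 CPM in capillary-like cells, which moved the same way as Ace by label, and to 1341, 1281, 1439 and 2200 CPM in the Sema3g cluster, where they moved that way only in old; their part in the Ace result was not tested.

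**Figure D3:**
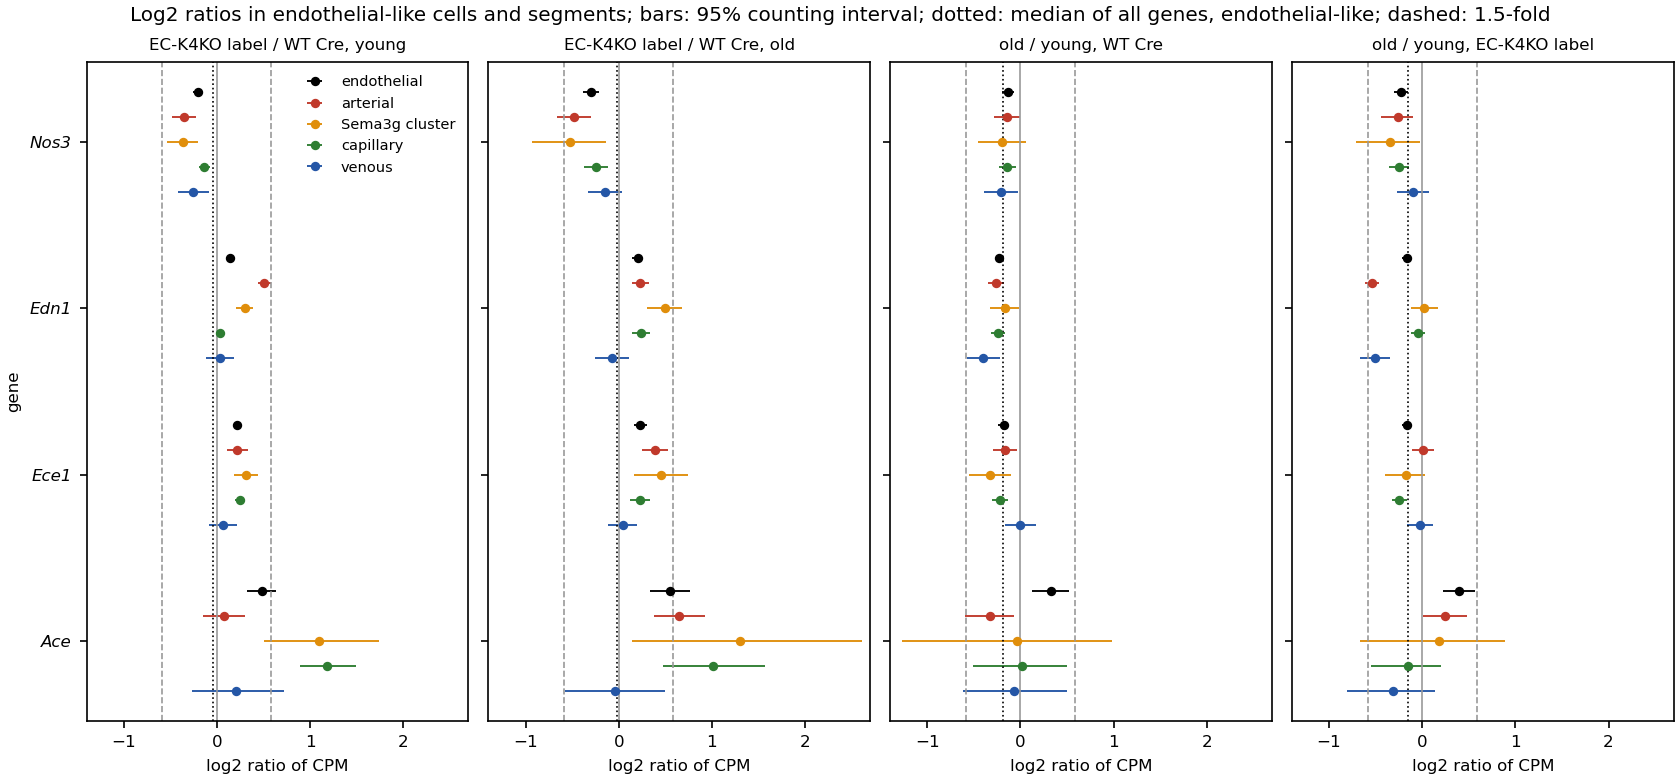
Log2 ratio of the CPM of Nos3, Edn1, Ece1 and Ace in the 4 comparisons, in all endothelial-like cells and in 4 segments, with exact 95% intervals for counting error only; dashed lines mark 1.5-fold and the dotted line the median of all genes in endothelial-like cells. Ace in capillary cells sits at 1.18 and 1.01 in the label comparisons, past the line, and the Nos3 points lie below 0 in every segment drawn.

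**Figure D4:**
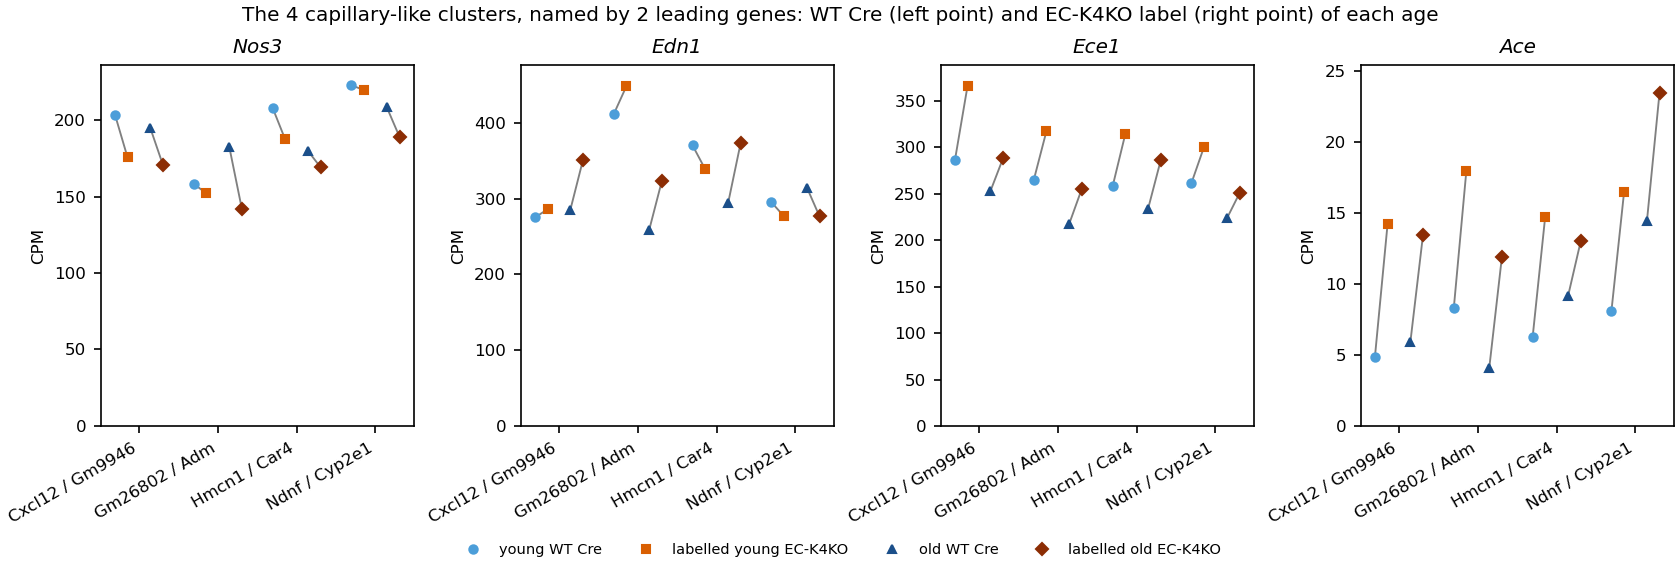
Level (CPM) of Nos3, Edn1, Ece1 and Ace in the 4 capillary clusters, a point for each library, with clusters named by 2 leading genes and lines joining the libraries of one age. Nos3 is lower and Ece1 and Ace are higher in the library labelled EC-K4KO in each of the 4 clusters at both ages. No intervals are drawn, some differences are small, and the old Ace points rest on few UMIs.

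The comparison of old with young was read against a general shift, since the median endothelial gene was lower by 0.18 in WT Cre and by 0.15 in EC-K4KO on the log2 scale, and these 2 comparisons share libraries with the label comparisons. Nos3 differed between old and young by −0.14 (−0.20 to −0.07) in WT Cre and −0.23 (−0.30 to −0.15) in EC-K4KO, which relative to that shift left 0.05 and −0.08. Edn1 gave −0.23 and −0.17 (−0.04 and −0.02 relative to the shift), and Ece1 −0.18 and −0.16 (0.00 and −0.01). The capillary-like cluster led by Gm26802, Adm and Pmaip1 held 203 of 2021 and 450 of 2381 capillary-like cells in the young libraries, against 660 of 1384 and 577 of 1227 in the old ones. In WT Cre, Edn1 at 411.5 CPM in young and 258.9 CPM in old was lower in old within that cluster, as it was in the cluster led by Hmcn1 (370.1 and 293.8 CPM), and higher in the clusters led by Cxcl12 (275.1 and 285.5 CPM) and Ndnf (295.2 and 314.6 CPM). In the libraries labelled EC-K4KO it was lower in old in the cluster led by Gm26802 (448.2 and 323.2 CPM), higher in those led by Hmcn1 (338.8 and 373.5 CPM) and Cxcl12 (285.8 and 351.1 CPM), and 276.5 and 276.6 CPM in the one led by Ndnf. With TMM factors or median-of-ratios size factors the Nos3 value in WT Cre changed sign, at 0.03 in each case.

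In endothelial-like cells 0 of 5 members passed the fold by age under either label, where 11.0% of genes in WT Cre and 10.3% in EC-K4KO did. By segment the members past the fold were 0 of 4 in arterial-like (15.9% and 14.4% of genes), capillary-like (9.85% and 9.21%), venous-like (16.7% and 15.9%) and Sema3g cells (15.5% and 16.8%). Edn1 in venous-like cells gave −0.40 (−0.57 to −0.22) and −0.50 (−0.66 to −0.35), but the WT Cre value was 0.15 with per-cell marker UMIs and −0.63 with cells weighted equally, and the EC-K4KO value was −0.65 with the stricter cell filter. Ace in whole endothelial-like cells gave 0.32 (0.12 to 0.52) and 0.40 (0.22 to 0.57), while arterial-like cells made up 8.91% and 9.60% of endothelial-like cells in the young libraries and 15.2% and 14.3% in the old ones. With segments weighted alike in each library, an alternative added after seeing the data, the Ace values were −0.20 and 0.04.

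Among mural cells, Ece1 was lower in old pericyte-like cells, which had 504, 483, 124 and 109 UMIs. Both old libraries were below both young ones, and the log2 ratio was −0.94 (−1.24 to −0.66) in WT Cre and −0.56 (−0.88 to −0.26) in EC-K4KO. Endothelial markers in those cells summed to 2483, 3827, 233.2 and 2083 CPM, also lower in both old libraries. Their part in the Ece1 ratios was not tested. With cells assigned by their own marker UMIs the EC-K4KO value was −0.01 and the WT Cre value −1.26. In the Olfr558 cluster Ece1 gave −0.78 (−1.5 to −0.16) and −0.64 (−1.73 to 0.18), from 96, 155, 25 and 11 UMIs. Both fell under the fold in some alternatives, the WT Cre value at −0.52 with doublets kept and the EC-K4KO value at −0.47 with cells weighted equally and −0.21 with 5 UMIs added. Smooth muscle-like cells gave −0.64 (−1.09 to −0.20) and −0.06 (−0.61 to 0.41). The WT Cre value fell under the fold, to between −0.58 and −0.55, in 4 alternatives (TMM factors, size factors, cells weighted equally and doublets kept), and the EC-K4KO value was −0.87 with the stricter cell filter.

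Ednrb differed the other way by age in pericyte-like cells, from 40.2 and 26.8 CPM in the young libraries to 76.9 and 113.5 CPM in the old ones. The log2 ratio was 0.94 (0.16 to 1.71) in WT Cre and 2.07 (1.25 to 2.94) in EC-K4KO, from 22 to 32 UMIs a library. Astrocyte markers in the same cells stood at 79.1, 95.1, 58.3 and 58.6 CPM, from 3, 5, 5 and 5 of 7 markers. Of 6 oligodendrocyte precursor markers, 2, 2, 2 and 1 gave UMIs, with Olig1 and C1ql1 at 0 in each library and Cspg4, also known as a pericyte gene, the single one in old EC-K4KO. The Olfr558 cluster held 5, 13, 16 and 8 Ednrb UMIs, at 3.04 and 4.95 CPM in young against 21.4 and 26.4 CPM in old, and it reached the mean of 10 CPM there only through the old libraries.

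Ednra stayed within the fold by age in smooth muscle-like, pericyte-like and Olfr558 cells, except that the WT Cre value in smooth muscle-like cells, −0.27, was −1.11 with the stricter cell filter (at least 1000 genes and 2000 UMIs and at most 5% mitochondrial UMIs). By label its largest mural ratio was in old pericyte-like cells, at 148.4 against 238.0 CPM (0.68, 0.14 to 1.22), whereas the young pair gave 0.20 (−0.13 to 0.52), which was −0.14 with doublets kept. Smooth muscle-like cells gave 0.10 (−0.12 to 0.33) in young and 0.42 (0.07 to 0.76) in old, and the young value was −0.23 with per-cell marker UMIs and −0.52 with the stricter cell filter.

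In pericyte-like cells 2, 2, 4 and 2 of 5 members passed the fold in the young label, old label, WT Cre age and EC-K4KO age comparisons, where 20.5%, 35.1%, 34.3% and 31.7% of genes did. Those counts include Nos3 (19, 30, 0 and 0 UMIs) and Edn1 (30, 47, 1 and 12 UMIs). The 8 endothelial markers summed to 2483, 3827, 233.2 and 2083 CPM in pericyte-like cells. Edn1, at 37.7, 57.3, 2.65 and 43.9 CPM, was likewise highest in young EC-K4KO and lowest in old WT Cre, whereas Nos3 had 0 UMIs in old EC-K4KO, where the markers were near their young WT Cre level; the markers' part in the count was not tested. Nos3 reached the mean of 10 CPM only through the young libraries, so its calls by age set counts against 0, and with 0 UMIs on both sides it has no ratio in the old label pair. In smooth muscle-like cells the counts were 0, 0, 1 and 0 of 2 (3.35%, 8.64%, 10.2% and 12.2% of genes), and in the Olfr558 cluster 1, 0, 2 and 2 of 3 (8.29%, 28.5%, 20.2% and 27.7%), where Ednrb had entered through the old libraries. Nothing is read from these counts.

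In astrocyte-like cells 2, 0, 2 and 2 of 3 members passed, against 17.1%, 21.7%, 20.5% and 22.2% of genes. Ednrb there was lower in old WT Cre than in young WT Cre, at −0.67 (−0.89 to −0.47), while EC-K4KO gave −0.13 (−0.39 to 0.12). Ednra rested on 24, 38, 17 and 10 UMIs in those cells. Smooth muscle markers in them summed to 67.7, 133.2, 831.6 and 32.4 CPM and endothelial markers to 357.1, 529.5, 307.8 and 53.4 CPM, and their part in the Ednra and Ece1 ratios was not tested.

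The other genes of the 3 pathways came from lists of 49 genes chosen with earlier results of these data known, of which 36 reached 50 CPM in some class. In endothelial-like cells 19 of 24 genes of the nitric oxide list were tested, and by age 3 were higher and 1 lower past the fold in WT Cre, where 4.20% of all genes tested were higher and 6.76% lower. In EC-K4KO 2 were higher and 1 lower, against 4.43% and 5.91%. The list's median was −0.09 and −0.03, against −0.18 and −0.15 over all genes. By label it had 1 higher in young and 0 in old, against 1.32% and 1.42% of all genes. The endothelin list had 4 of 8 tested, with 1 lower by age in WT Cre, and the angiotensin and kinin list had 5 of 17 tested with none past the fold.

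Nos1, the neuronal nitric oxide synthase, was an arterial gene here, at 114.7, 130.8, 146.4 and 194.0 CPM in arterial-like cells and at most 3.35 CPM in capillary-like cells. In whole endothelial-like cells its age ratio was 1.14 in WT Cre and 1.33 in EC-K4KO. Within arterial-like cells, whose share was larger in the old libraries, it was 0.35 (0.16 to 0.54) and 0.57 (0.40 to 0.74), both under the fold. Nos2, the inducible synthase, was lower in old, at −0.61 and −1.41. Like those of Gch1 and Edn3 below, these ratios are for whole endothelial-like cells and are not given by segment. Venous-like cells made up 2.69% and 5.87% of endothelial-like cells in the young libraries and 10.1% and 11.6% in the old ones. The part of this makeup in those ratios was not tested. Gch1, which starts the synthesis of the synthase cofactor tetrahydrobiopterin, stood at 136.3, 133.2, 225.8 and 172.2 CPM, and its age ratio was 0.73 in WT Cre and 0.37 in EC-K4KO.

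Edn3, the endothelin that favours the receptor encoded by Ednrb, stood at 141.0, 121.5, 73.2 and 93.8 CPM in endothelial-like cells. Its age ratio was −0.95 (−1.04 to −0.85) in WT Cre and −0.37 (−0.47 to −0.28) in EC-K4KO. Downstream of nitric oxide, Gucy1b1, a subunit of soluble guanylate cyclase, averaged 773.0 CPM in pericyte-like cells. Pde5a, which breaks down cyclic GMP, averaged 351.8 CPM in the Olfr558 cluster. Their levels in other classes are not given here.

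Of the angiotensin list, pericyte-like cells held Enpep, an aminopeptidase that acts on angiotensin II, at 464.7, 457.4, 355.1 and 260.0 CPM. The old libraries were below the young ones. Agt, the substrate precursor, was an astrocyte gene at 69.5, 158.2, 174.6 and 162.0 CPM. Agtr1a, the main receptor for angiotensin II, gave 0 UMIs in pericyte-like and smooth muscle-like cells of each library, a count that allows up to 3 UMIs.

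Genes whose pattern was most like that of each member were ranked by Pearson's r of log2(CPM + 1) over 71 points, each a class in a library, from 20 groups, and 9631 candidates. These are descriptions, since the points share libraries and classes. Nos3 was most like Cavin2 (0.94), Mecom (0.92) and Thsd1 (0.89), and Edn1 most like Tbx1, Cd34 and Zfp366 (0.90 each). Ece1 was most like Agrn (0.88), Foxf2 (0.87) and Mapk12 (0.87), and Ednra most like Vstm4 (0.93), Plce1 (0.92) and Gm42899 (0.92). Ednrb and Ace had looser company, the former with Fads2 (0.68), Mdk (0.67) and Epb41l5 (0.67), and the latter with Eps8l2 (0.77), Cx3cl1 (0.75) and Palmd (0.75). The names depend on the measure: by Spearman's rank correlation the genes closest to Ednra were Nbl1, Dmd and Slc7a2, and those closest to Ednrb were Glud1, Slc12a4 and Mdk.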

How the data were processed

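Brain cells enriched for endothelium from 4 groups of mice gave 1 droplet library each. The authors deposited UMI counts per gene and barcode, made per the file headers with Cell Ranger 6.0.2, and the submitters' processing notes name mm10 and GRCm38. Of 55487 versioned gene identifiers, 55094 matched GENCODE M21. Python 3.11.15, scanpy 1.11.5, leidenalg 0.10.2, scipy 1.17.1, R 4.3.3 and edgeR 4.0.16 (for TMM factors only) were used. Barcodes with at least 500 genes, 1000 UMIs and at most 10% mitochondrial UMIs were kept, and the barcodes with the highest Scrublet scores, 0.8% for each 1000 cells, were removed as doublets. Clusters (2000 variable genes, 30 components, resolution 1) were named from marker genes by a rule set after the clusters were seen, so names can differ from the study's annotation. Where a cluster missed the rule it kept its leading genes. UMIs were summed by class and library. A ratio has 0.5 UMIs added to each sum, and a gene counted as different at 1.5-fold among genes averaging 10 CPM in the class. No test was made with 1 library a group; intervals are exact and cover counting error only. The members and lists were chosen with earlier results of these data known. Named genes were the members, genes of the lists that reach 50 CPM or pass the fold alike in both pairs, the 3 most alike for each member, and Klf4. Alternatives were other factors, filters, weights and assignments, of which 4 were added after seeing the data. Libraries held 30655769 to 88812581 UMIs. The ratios were tested on simulated data. A result on 1 gene of the pathway lists is not reported here.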

Additional observations from a re-analysis of the deposited data

Results flagged for a closer look

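Ace in arterial-like cells moved in opposite directions with age in the WT Cre libraries and the libraries labelled EC-K4KO, and this drew attention because each side has 1 library a group and the difference itself was not tested. In WT Cre the level was lower in old, with a log2 ratio of −0.33 (95% counting interval −0.60 to −0.07, 275 against 214 UMIs), and in the libraries labelled EC-K4KO it was higher, with 0.24 (0.0049 to 0.48, 434 against 227 UMIs). The median arterial-like gene was at −0.18 and −0.13, which relative to that shift left −0.15 and 0.37. When cells were assigned by their own marker UMIs, the value for the label EC-K4KO was −0.06.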

How the results depend on the processing

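No paired analysis was possible because every library carries the number 1 and a group has no second library. Of 120 ratios recomputed under the alternatives (1008 values), 51 values crossed the fold and 69 changed sign. Ratios past the fold that reversed rested on few UMIs: Edn1 in pericyte-like cells by label in young was −0.62 with per-cell markers, and with the stricter filter Ednra in astrocyte-like cells by age in EC-K4KO was 0.068 and Ednrb in the Olfr558 cluster by label in young was −0.22. The count of members past the fold by label in endothelial-like cells, 0 at each age, was 1 in young and 1 in old with cells weighted equally, 2 and 2 with per-cell markers, and 1 in old with segments weighted alike. By age in EC-K4KO it was 1 without the cluster led by Adm and Pmaip1. In smooth muscle-like and pericyte-like cells together, the count by label in young was 0 with 5 UMIs added, by label in old 4 with per-cell markers, and by age in EC-K4KO 1 with per-cell markers and 4 with the stricter filter. The cause was not tested. Ace in capillary-like cells by label stayed past the fold under each alternative, at 1.14 to 1.55 in young and 0.72 to 1.16 in old. The alternatives reuse the same libraries, and Ace was among the genes tested there only through the libraries labelled EC-K4KO. Nothing is read from its staying past the fold, and the part of the arterial markers was not tested. With no minimum level, the share of all endothelial genes past the fold was 40.7%, 29.4%, 50.9% and 40% in the 4 comparisons, and with at least 50 CPM it was 1.67% by label in old. The class with the highest level held for 6 of 6 genes under the 4 alternatives in which it was recomputed (cells weighted equally, per-cell markers, the stricter filter and doublets kept), and of these per-cell markers changed the segment order of Nos3. Depth limits the mural and glial ratios, since many rest on under 50 UMIs.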
